A study of Homo sapiens with 4 samples.

Results

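Human chromosome 9 beyond its first 40 Mb, most of it the long arm, was described through the H4K20me1 peaks that start above position 40000000 of hg38, of which there were 580 among 25514 peaks in all. H4K20me1, histone H4 monomethylated at lysine 20, had been profiled by CUT&Tag, in which an antibody brings a transposase to marked chromatin. The cells were Kasumi-1, a line of acute myeloid leukemia with the RUNX1-RUNX1T1 fusion. Of 4 libraries, 2 came from cells with a CRISPR/Cas9 knockout of SETD8 and 2 from cells with a non-targeting guide, labelled as wild type, and both groups share the line, the culture medium and the antibody. The deposited table gives 1 value per group and peak, not per library, so no difference here has a replicate check, and whether the libraries within a group are separate cultures is not in the labels. The value columns are known only by number and are called first-listed and second-listed here. The comparison is named as treated against control, by which the knockout would be first-listed, but no header states it.

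The segment was picked because its log2 fold changes were low (the first-listed value minus the second-listed one, so that a negative value means fewer reads in the first-listed group). These values are therefore given as a description, with no test. The remainder of chromosome 9, with 198 peaks that start up to 40 Mb, serves for comparison. Neither an input library nor spiked-in DNA enters these values, so the number of copies of the segment in each group and the amount of mark per copy cannot be told apart.

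SETD8, also named KMT5A, is the only enzyme known to place the first methyl group on lysine 20 of histone H4, and other enzymes add further ones to it. The mark is known from the bodies of transcribed genes and from the inactive X chromosome, and its level follows the cell cycle, with most of it in mitosis. The long arm of chromosome 9 is known in this leukemia for interstitial deletions that recur beside the RUNX1 fusion and remove TLE1 and TLE4, corepressors of the Groucho family.

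Promoter windows of 4 genes are printed because peaks at the low and at the high end of the segment lie on them. PDCL and RGS3 stand for the lowest and the highest of the 20 peaks named below whose window is touched by the peak, and these peaks overlap only 22 and 32 bases of the windows. The windows of AKNA (114387933 to 114388232, minus strand) and SPTAN1 (128552337 to 128552636, plus strand) lie wholly inside a peak and were chosen after the values were seen, as the lowest and the highest such peak of at least the median mean signal, without LOC and LINC genes. Weaker peaks around whole windows went lower (ERCC6L2, -0.86) and higher (PSMD5, 0.70). PDCL lies at 122828539 to 122828838 on the minus strand and RGS3 at 113580678 to 113580977 on the plus strand. Each window runs 5′ to 3′ over 250 bases before and 50 bases after a start on chromosome 9 that the RefSeq table (GRCh38.p14) gives. For RGS3 and AKNA this start lies inside the gene, which spans 113444730 to 113597738 in RGS3 and 114330504 to 114398472 in AKNA. GNAQ and PSMB7 are named only. Capitals mark matches to 3 motifs searched on both strands, the GC box GGGCGG, the ETS motif CCGGAA and the RUNX motif TGTGGT, none of whose matches overlap in these windows.
PDCL: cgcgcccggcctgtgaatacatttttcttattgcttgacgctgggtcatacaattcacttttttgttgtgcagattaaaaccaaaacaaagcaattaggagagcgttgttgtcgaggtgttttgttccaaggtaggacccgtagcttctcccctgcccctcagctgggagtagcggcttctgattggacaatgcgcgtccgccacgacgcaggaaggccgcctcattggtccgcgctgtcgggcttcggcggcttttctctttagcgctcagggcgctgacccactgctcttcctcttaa
RGS3: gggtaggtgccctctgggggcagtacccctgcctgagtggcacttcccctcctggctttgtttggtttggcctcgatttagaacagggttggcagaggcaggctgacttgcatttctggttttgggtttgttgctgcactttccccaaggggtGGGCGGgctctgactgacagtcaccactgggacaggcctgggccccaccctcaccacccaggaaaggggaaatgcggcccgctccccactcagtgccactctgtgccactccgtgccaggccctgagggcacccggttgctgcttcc
AKNA: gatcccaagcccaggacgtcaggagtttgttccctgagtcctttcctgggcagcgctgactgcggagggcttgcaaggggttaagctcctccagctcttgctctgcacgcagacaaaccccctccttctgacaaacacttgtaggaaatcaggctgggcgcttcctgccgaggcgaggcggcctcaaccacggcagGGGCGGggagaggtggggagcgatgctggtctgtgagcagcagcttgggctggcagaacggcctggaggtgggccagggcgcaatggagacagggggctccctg
SPTAN1: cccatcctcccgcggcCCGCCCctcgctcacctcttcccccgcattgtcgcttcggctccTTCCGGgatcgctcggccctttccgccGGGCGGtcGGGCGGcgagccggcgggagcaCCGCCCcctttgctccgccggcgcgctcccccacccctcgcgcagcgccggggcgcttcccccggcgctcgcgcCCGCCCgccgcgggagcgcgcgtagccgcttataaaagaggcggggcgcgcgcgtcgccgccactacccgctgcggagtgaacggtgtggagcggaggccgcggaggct

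The PDCL window held no match, RGS3 and AKNA 1 GC box each, and SPTAN1 5 GC boxes and 1 ETS match. The AKNA peak, inside a gene for a centrosome and AT-hook protein, held 127 first-listed and 216 second-listed reads, which is a log2 fold change of -0.72. The SPTAN1 peak, over the start of the gene for non-erythroid alpha spectrin, held 105 and 81 reads, a log2 fold change of 0.43. Among the 139 promoter windows of the segment under a peak, 70.5% held a GC box, 27.3% an ETS match and 7.91% a RUNX match. Over all 1179 windows of the segment the shares were 48.5%, 15.6% and 10.1%, and over all 35116 promoters from RefSeq they were 45.0%, 17.2% and 13.1%. Within the segment, a GC box stood in 67.3% of 101 windows under a peak below 0 and in 81.1% of 37 windows under a peak at or above the median of all peaks. ETS shares in these sets were 27.7% and 27.0%, and RUNX shares 7.92% and 8.11%. The 139 windows lie under 92 peaks, so windows under the same peak share its value and are not separate observations. The 37 include FAM27E4, whose value of 0.06 comes from the lowest value of both columns. GC content and log2 fold change, over 92 promoter peaks that share both columns, had a Pearson correlation of 0.096 and a Spearman correlation of 0.071. A match describes the letters of the window only.

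The 580 peaks of the segment had a median log2 fold change of -0.15 (quartiles -0.43 and 0.07, SD 0.455), against 0.175 (quartiles -0.14 and 0.38) on chromosome 9 below 40 Mb and 0.06 over all peaks. The segment thus stood 0.325 below its own chromosome's other side and 0.21 below all peaks, and both gaps are the same under any scaling of the columns. In the segment 386 peaks, or 66.6%, were below 0, against 66 of 198 (33.3%) below 40 Mb and 40.9% of all peaks. At or above the median of all peaks stood 173 segment peaks, or 29.8%, against 128 (64.6%) below 40 Mb and 54.1% of all peaks. Recovered reads summed to 60908 first-listed and 70015 second-listed, a log2 ratio of -0.14 (exact 95% interval -0.16 to -0.13). Below 40 Mb the sums were 20577 and 18707 reads, a ratio of 0.19 (0.17 to 0.22). The intervals are Clopper-Pearson, cover counting error only and are too narrow where both ends of a fragment were counted.

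**Figure D1:**
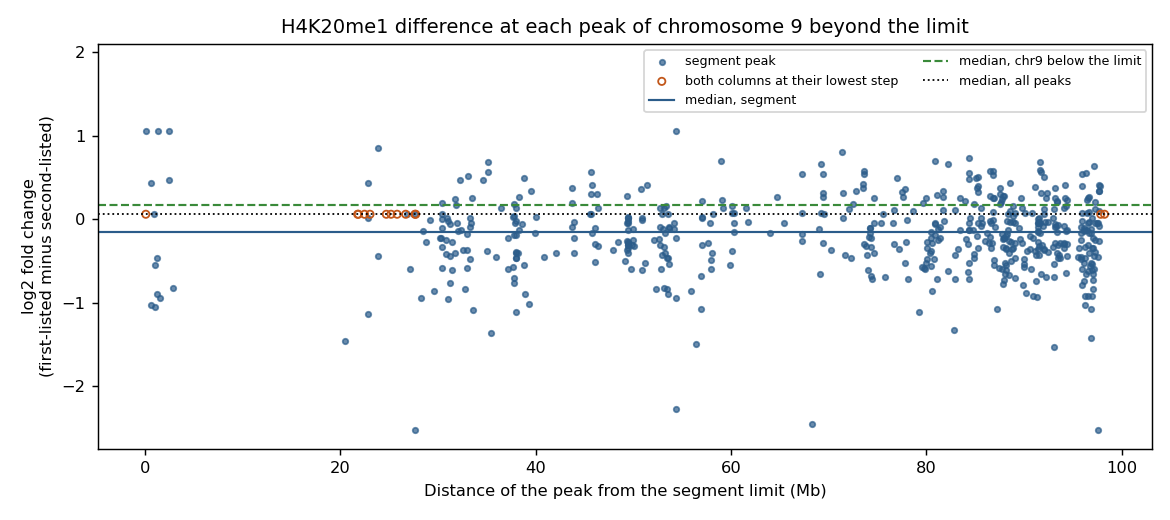
Log2 fold change of each of the 580 peaks (first-listed minus second-listed) against distance from the 40 Mb limit in Mb, with open circles for the 13 peaks at the lowest step of both columns and lines for 3 medians. Most points lie under the line for chromosome 9 below the limit at 0.175, and the segment median is -0.15.

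A log2 fold change of -1 or less was found in 21 segment peaks (3.62%), against 0 below 40 Mb and 0.909% of all peaks. One of 1 or more was found in 4 segment peaks (0.690%), against 4 below 40 Mb (2.02%) and 1.55% of all peaks. In the weakest quartile of mean signal, where reads are few, lay 15 of these 21 segment peaks and all 4 of these 4. By the authors' deposited table (made with DESeq, as the submitters' processing notes name it), 0 segment peaks had an adjusted p under 0.05, and so had 0.0% of all peaks. The smallest adjusted p in the segment was 0.566 in the authors' deposited table. At an unadjusted p under 0.05 the authors' deposited table has 32 lower segment peaks (5.52%), where 1.69% of all peaks are lower. It has 1 higher segment peak (0.172%), where 3.37% of all peaks are higher. Below 40 Mb it has 2 lower and 7 higher peaks. How these p-values estimate the spread between libraries is not known. For that reason, and because the segment was chosen on this contrast, nothing is read from these counts.

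Other properties of the peaks had no part in the choice of the segment and were not tested. The median mean signal of its peaks was 6.32 on the log2 scale, against 6.20 below 40 Mb and 6.15 over all peaks. They had a median width of 1199.5 bp, against 1007.5 bp below 40 Mb and 1097 bp over all peaks. There were 5.91 peaks per Mb of spanned sequence in the segment, against 5.00 below 40 Mb and 8.42 over all peaks. This span includes a long stretch without any peak. From 40 to 68 Mb there were 1.23 peaks per Mb, and from 68 Mb on 7.81. Of 567 protein-coding genes of the segment, 212 (37.4%) had a peak, against 72 of 211 (34.1%) below 40 Mb and 37.6% of the coding genes in all. Promoters up to 3 kb took 39.7% of segment peaks, introns 35.5%, distal intergenic sequence 17.9% and exons 4.31%. This promoter class is reckoned from any annotated transcript start, also one inside a gene.

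The low values were found in each large class of peak. Promoter peaks had a median of -0.175 in the segment (230 peaks), against 0.185 below 40 Mb (78 peaks) and 0.09 over all promoter peaks. Intron peaks had a median of -0.10 in the segment (206 peaks), against 0.31 below 40 Mb (57 peaks) and 0.10 over all. Distal intergenic peaks had a median of -0.19 in the segment (104 peaks), against 0.12 below 40 Mb (50 peaks) and -0.01 over all. Exon peaks had a median of -0.12 in the segment (25 peaks), against 0.14 below 40 Mb (9 peaks) and 0.09 over all. The 10 peaks in 3′ untranslated regions had a median of -0.325. By quartile of mean signal, from weak to strong, the segment medians were -0.135, -0.15, -0.21 and -0.13, against 0.12, 0.03, 0.18 and 0.29 below 40 Mb.

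**Figure D2:**
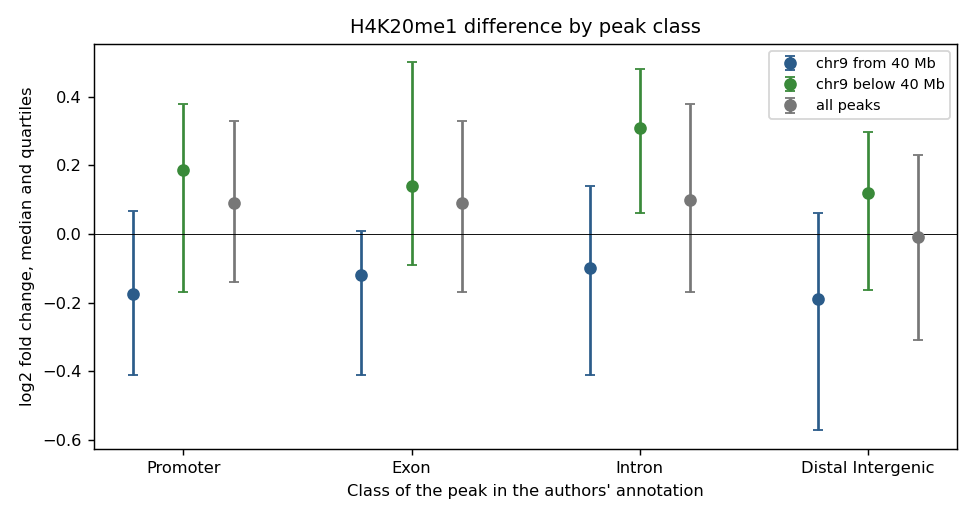
Median log2 fold change with quartiles (bars) for the 4 main peak classes, in the segment, on chromosome 9 below 40 Mb and over all peaks. The segment has the lowest of the 3 medians in each of these classes, from -0.19 to -0.10.

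Just outside the limit, the last 4 peaks below 40 Mb held 56 and 50 reads near FAM201A (log2 fold change 0.22), 4 and 4 near CNTNAP3 (0.06), and 19 and 11 (0.85) and 17 and 28 (-0.66) near FAM74A1. Just inside, the first 4 held 1 and 1 read (0.06) and 2 and 1 reads (1.06) near ANKRD20A2P, and 26 and 20 (0.44) and 8 and 17 (-1.03) near FAM95B1. A recovered count of 1 is the lowest that a column has and may stand for no reads. The values on both sides of the limit thus rest on few reads and have both signs. No peak lay between 45 and 60 Mb. From 40 to 68 Mb, limits chosen after the values were seen, 34 peaks had a median of 0.06 and only 549 and 754 reads in all, a summed log2 ratio of -0.40 (exact 95% interval -0.56 to -0.24). In 11 of these peaks the value was the lowest possible in both columns (the lowest step), which gives 0.06 by construction and counts such a peak as at the median of all peaks. The genes there (ANKRD20A, FOXD4L, SPATA31A and others) belong to families of near-identical copies, so reads could be placed at the wrong copy and the values are uncertain.

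Along the segment, 16 windows of 5 Mb held at least 10 peaks. Of these, 12 had a median below 0 on the deposited scale, where 26.6% of such windows in the genome do. Another 2 lay between 0 and 0.06, and 2 were at 0.06. Scaled to the same reads in peaks, 16 of 16 were below 0, and unscaled 14 were. No genome share is given on those scales, so the 26.6% is no measure for them. All 3 windows below 40 Mb with at least 10 peaks had medians of 0.18 to 0.24. The lowest window began at 95 Mb, with a median of -0.295 over 18 peaks, followed by 90 Mb (-0.24, 37 peaks) and 135 Mb (-0.235, 74 peaks). The lowest peaks of the 95 Mb window lay before 97 Mb, at ZNF367 (-1.50), SLC71A3P (-1.08 and -0.68) and ERCC6L2-AS1 (-0.86). SLC71A3P is a near-identical copy of SLC71A2, so its values are uncertain. The other peaks of this window ran between -0.60 and 0.70, and 5 of its 18 peaks stood at or above the median of all peaks. The windows from 120, 125 and 130 Mb, with 51, 84 and 85 peaks, had medians of -0.19, -0.15 and -0.15. Of the 4 windows without a low median, those from 60 and 65 Mb (0.06 and 0.025) held 5 lowest-step peaks each and gave -0.215 and -0.27 without them.

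The other windows without a low median lay together, from 100 Mb (0.02, 10 peaks) and from 105 Mb (0.06, 15 peaks). Around them, from the peak at 97001481 to that at 113872619, limits chosen after the values were seen, 54 peaks had a median of 0.035, and 27 were at or above the median of all peaks. Their reads summed to 5216 and 5579, a log2 ratio of -0.04 (-0.09 to 0.01). This stretch takes in most peaks of the lowest window, that from 95 Mb, but not the lowest ones, which lie before 97 Mb. The low median of that window and the median of the stretch are therefore not separate observations. On the centromeric side, from 68 to 97 Mb, 163 peaks had a median of -0.22 (summed -0.17, -0.20 to -0.14). Beyond this stretch, to the end of the arm, 329 peaks had a median of -0.17 (summed -0.14, -0.16 to -0.12). High peaks of the stretch with a median of 0.035 lay in RGS3, PTPN3, EPB41L4B and COL15A1. Low ones within it lay at TMEM245 (128 and 209 reads, -0.65), ANP32B (276 and 406 reads, -0.49) and TXN, which encodes thioredoxin (242 and 326 reads, -0.37). Its lowest and highest peaks had weaker signal, at -2.45 near ACTL7B (log2 mean signal 3.27) and 0.81 in ECPAS (4.65). These were named after their values were seen. Over 579 pairs of neighbouring peaks, which share both columns, the correlation of log2 fold changes was 0.063.

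**Figure D3:**
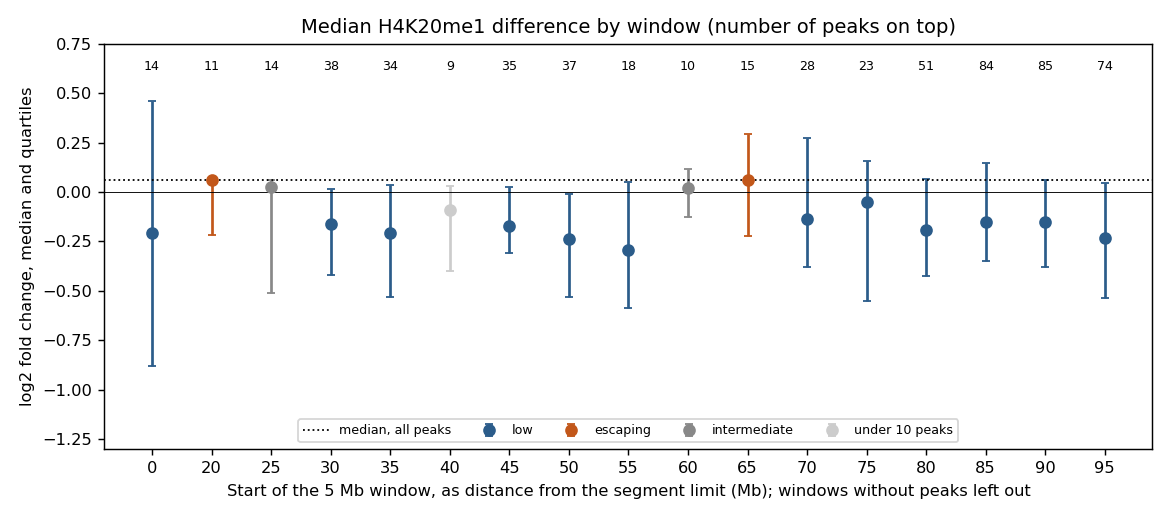
Median log2 fold change with quartiles (bars) in 5 Mb windows, placed by distance of the window start from the 40 Mb limit, with the number of peaks on top. The 12 windows with medians below 0 are blue, and the windows at distances of 60 and 65 Mb stand at 0.02 and 0.06.

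By their host gene, or for promoters and untranslated regions the nearest gene, 462 peaks were given to 237 genes. The mean over a gene's peaks was below 0 in 169 genes (71.3%), against 27 of 80 below 40 Mb and 37.6% of all 8440 genes. In 63 genes (26.6%) the interval of the summed reads lay wholly below 0, as it did for 4 of 80 genes below 40 Mb and 8.91% of all. At or above the median of all peaks were 60 genes (25.3%), here called escaping, against 50 of 80 below 40 Mb and 55.7% of all. In 15 segment genes (6.33%) the interval lay wholly above 0, against 23 of 80 below 40 Mb and 23.6% of all. Scaling the columns to equal reads in peaks lowers every value by 0.11 and turns the sign of those between 0 and that size, but leaves the position relative to all peaks as it is.

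Genes with at least 4 peaks numbered 29, of which 20 had a mean below 0, against 0 of 8 below 40 Mb and 30.9% of 1174 such genes in all. Every peak was below 0 in 5 of them, NEK6, PHF2, SLC25A25, CDK5RAP2 and COL27A1, against 0 of 8 below 40 Mb and 3.49% of all. Every peak was at or above the median of all peaks in 1, RGS3, against 1 of 8 below 40 Mb and 14.7% of all. GNAQ, the alpha subunit that couples receptors to phospholipase C, carried the most peaks, 16, with 1874 first-listed and 2436 second-listed reads. Its summed log2 ratio was -0.32 (-0.41 to -0.23). The promoter peak of GNAQ was its lowest at -1.11, while its 15 intron peaks ran between -0.76 and 0.18. SEMA4D, a semaphorin of lymphocytes, had 13 peaks between -0.41 and 0.03 (3509 and 4056 reads, summed -0.15, -0.22 to -0.09), and PRRC2B 10 peaks between -0.43 and 0.00 (3615 and 4083 reads).

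Lower in the mean were NEK6, a mitotic kinase, at -0.54 over 4 peaks (464 and 700 reads), and PHF2, a histone lysine demethylase, at -0.50 over 4 peaks (469 and 647 reads). The mean of SLC25A25, a mitochondrial carrier, was -0.435 over 4 peaks (301 and 419 reads). CDK5RAP2, a centrosome protein, stood at -0.41 over 6 peaks (443 and 641 reads). The Notch receptor gene NOTCH1 stood at -0.40 over 4 peaks (537 and 757 reads), of which 1 was at 0.25. TRAF2, an adaptor of TNF receptors, and TRPM3, a cation channel with 9 peaks, both stood at -0.39, and FNBP1, a membrane-curving protein, at -0.38. SLC71A2 and SLC71A3P, which the authors' table calls MFSD14B and MFSD14C, are near-identical copies, and their means of -0.595 and -0.30 are uncertain.

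RGS3, which shuts off G protein alpha subunits, stood highest, with 4 peaks at 0.37, 0.42, 0.54 and 0.58 and 727 and 552 reads (summed 0.45, 0.29 to 0.62). A further peak nearest to RGS3, in an intron whose annotation gives no host gene number, was at -0.30 and was not given to it. RAPGEF1, an exchange factor for the small GTPase Rap, had a mean of 0.325 over 6 peaks (889 and 685 reads, summed 0.43, 0.29 to 0.58). GAPVD1, PSMB7, PTPN3 and AGTPBP1 had means of 0.225, 0.21, 0.21 and 0.205. Among them only PTPN3 had an interval of the summed ratio that included 0 (summed 0.08, -0.10 to 0.27). EHMT1, a histone H3 lysine methyltransferase near the end of the arm, had 8 peaks between -0.26 and 0.41 and 1205 and 1115 reads (summed 0.17, 0.05 to 0.29). One of these 8 peaks was at the lowest step of both columns. Between these ends, KLF9, RXRA, MED27, LRRC8A, RALGDS, MAPKAP1 and RAD23B had means between -0.125 and 0.045. Mean and summed ratio differed in sign in CAMSAP1 (-0.055 and 0.17), RALGDS (-0.0025 and 0.08), MED27 (-0.06 and 0.01) and RAD23B (0.045 and -0.04).

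**Figure D4:**
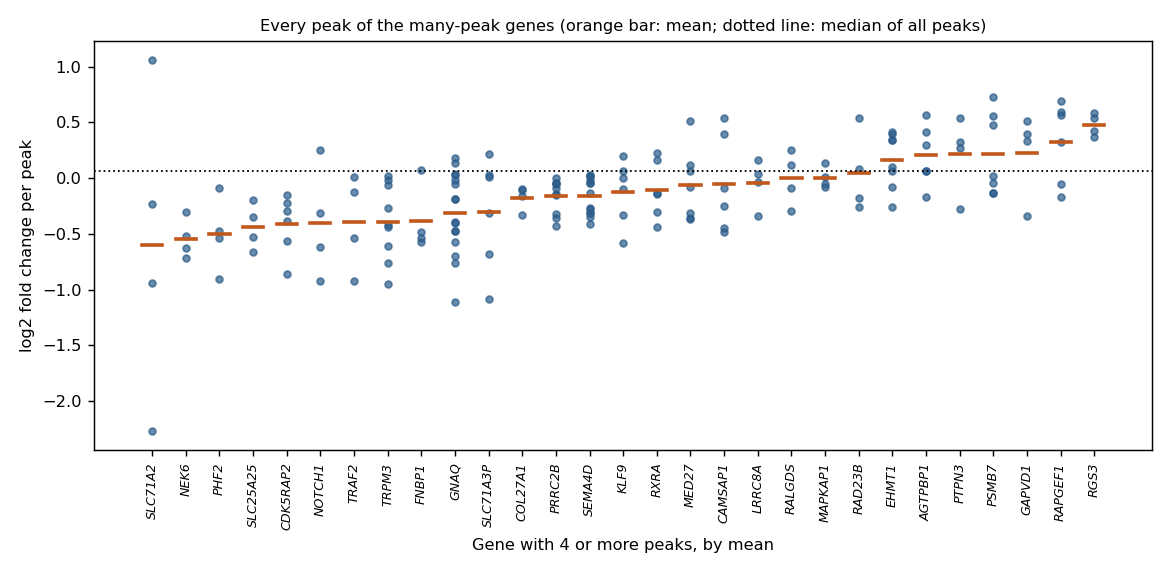
Log2 fold change of every peak (points) of the 29 genes with 4 or more peaks, ordered by their mean (orange bar), with the median of all peaks dotted. Means run between -0.595 in SLC71A2 and 0.48 in RGS3, and peaks of most genes have both signs.

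Low and escaping genes could be direct neighbours. NEK6 reaches to 124353307, and PSMB7, a catalytic subunit of the proteasome, spans 124353465 to 124415442, with its start at the end away from NEK6. All 4 NEK6 peaks were below 0. In PSMB7, the 3 peaks nearest to NEK6 held 246 and 280, 236 and 254, and 88 and 100 reads, with log2 fold changes of -0.13, -0.04 and -0.13. The next 3 held 58 and 41, 350 and 219, and 410 and 306 reads, at 0.56, 0.73 and 0.48, and the last, at the gene start, 39 and 40 reads at 0.02. This pair was picked after its values were seen.

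Among peaks of at least the median mean signal, with 1 peak per gene, the 10 lowest of 148 genes lay between -1.33 and -0.83. Of these, 7 were in the promoter class and 3 in introns. PDCL, a phosducin-like protein that helps to fold G protein beta subunits, had 59 first-listed and 154 second-listed reads at its promoter (122826772 to 122828560), which is a log2 fold change of -1.33 (-1.79 to -0.89). The unadjusted p in the authors' deposited table was 0.00132 and the adjusted p 0.649. The GNAQ promoter (78030103 to 78031187) had 104 and 233 reads, -1.11 (-1.45 to -0.77). RABL6, a RAB-like GTPase, had 47 and 103 reads in a promoter-class peak (-1.07), and CCDC187 73 and 155 in its intron 9 of 9 (-1.03). The remaining low peaks were those of TRPM3 (70 and 141 reads, -0.95), FAM78A (138 and 274, -0.93), NOTCH1 (110 and 216, -0.92), PHF2 (86 and 167, -0.90), CDK5RAP2 (119 and 226, -0.86) and ENTPD2 (84 and 155, -0.83). The promoter-class peaks of RABL6, FAM78A, NOTCH1, CDK5RAP2 and ENTPD2 lie at or near transcript starts inside the genes. That of RABL6 spans 136833001 to 136833800, in a gene from 136807948 to 136841187. Below the median signal, and named after their values were seen, ZNF367, a zinc finger factor, had 36 and 106 reads (-1.50, unadjusted p 0.000523 in the authors' deposited table, the smallest of the segment) and CCDC183 23 and 64 reads (-1.42).

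The 10 highest lay between 0.51 and 0.73, 5 in the promoter class and 5 in introns. PSMB7 led them, with 350 and 219 reads at 124387379 to 124389685, between 2 and 3 kb from a start (0.73, 0.49 to 0.98). Its unadjusted p in the authors' deposited table was 0.043 and its adjusted p 0.966. OSTF1, an osteoclast-stimulating factor, had 177 and 114 reads in intron 1 of 9 (75103688 to 75106132, 0.69, 0.34 to 1.04). RAPGEF1 had 99 and 64 reads (0.69), EPB41L4B 100 and 66 (0.66), RGS3 132 and 92 (0.58) and AGTPBP1 93 and 65 (0.57). CAMSAP1 had 249 and 178 reads (0.54), PTPN3 99 and 71 (0.54), RAD23B 127 and 91 (0.54) and GAPVD1 140 and 102 (0.51). The promoter-class peaks of PSMB7, RGS3, CAMSAP1 and RAD23B lie at or near transcript starts inside the genes. None of these 20 peaks passed the adjusted p.

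**Figure D5:**
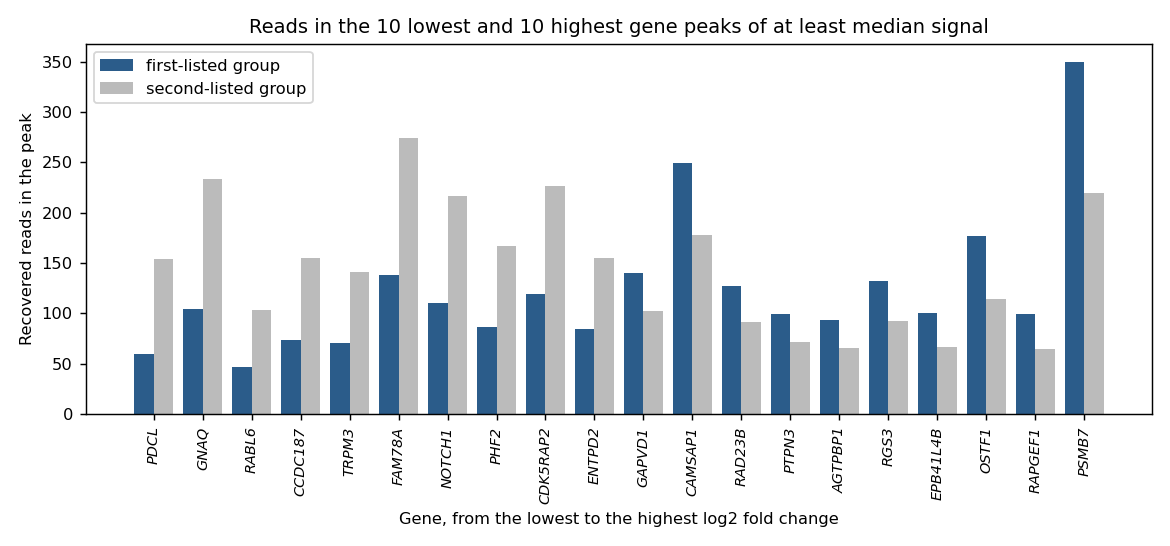
Recovered reads per peak in the first-listed (blue) and second-listed (grey) group for the 10 lowest and 10 highest gene peaks of at least median signal, ordered by log2 fold change. The 10 genes on the left have fewer reads in the first-listed group, such as PDCL with 59 and 154, and the 10 on the right have more, such as PSMB7 with 350 and 219.

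Genes were also grouped by role in 8 lists that share members. Genes named from a list besides its lowest and highest were chosen after their values were seen. They are read against the segment, where 71.3% of genes had a mean below 0 and the median gene stood at -0.18, and against all genes, where 37.6% did. Of 35 genes linked to blood cells and leukemia, 17 had a peak, 13 of these had a mean below 0, and the median was -0.17. SH2D3C, an adaptor of lymphocyte signalling, was lowest (98 and 153 reads, -0.59), the nucleoporin and fusion partner NUP214 stood at -0.56 (92 and 138 reads), and the kinase ABL1 had a mean of -0.255 over 2 peaks and a summed ratio of -0.13 (89 and 101 reads, -0.55 to 0.30). NFIL3, a basic leucine zipper factor of lymphoid development, was highest (69 and 54 reads, 0.41), and SYK, a kinase of immune receptors, stood at 0.175.

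Of 23 genes around the region deleted in this leukemia, 9 had a peak, 4 of these were below 0 and 5 escaped, with a median of 0.07. TLE4 had 101 and 83 reads in 1 peak (0.34, interval -0.09 to 0.78), TLE1 had no peak, and HNRNPK, an RNA-binding protein, had 601 and 670 reads (-0.13). CEP78, a centrosome protein, was lowest at -0.40 (35 and 48 reads, interval -1.07 to 0.26). The interval of the summed reads lay wholly below 0 in GNAQ (-0.32, -0.41 to -0.23) and GOLM1 (-0.32, -0.63 to -0.01). It lay wholly above 0 in UBQLN1 (0.14, 0.002 to 0.28) and AGTPBP1 (0.21, 0.06 to 0.36), and included 0 in the others.

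Of 47 chromatin and transcription genes, 27 had a peak, 18 of these were below 0, and the median was -0.13. LHX6, a homeobox factor, was lowest (37 and 59 reads, -0.62) and RORB, an orphan nuclear receptor, highest (36 and 27 reads, 0.47). WDR5, a shared subunit of histone H3 lysine 4 methyltransferases, stood at 0.33 (146 and 119 reads), and BRD3, a bromodomain reader, had a mean of -0.17 over 3 peaks but a summed ratio of 0.00 (1357 and 1409 reads, -0.11 to 0.11). Of 30 cell cycle and DNA repair genes, 15 had a peak and 11 of these were below 0, with a median of -0.225. NEK6 was lowest. ODF2, a centriole protein, stood at -0.54 (123 and 185 reads) and CKS2, a cyclin-dependent kinase subunit, at 0.28.

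Of 22 neuronal genes of the segment, 12 had a peak, 9 of these were below 0, and the median was -0.17. BRINP1 was lowest (24 and 54 reads, -1.11) and the calcium sensor NCS1 stood at -0.88. Of 26 mitochondrial genes, 7 had a peak, 4 of these were below 0, and the median was -0.33, with PTGES2 lowest (93 and 148 reads, -0.61) and DNLZ highest (75 and 53 reads, 0.56). Of 32 genes of membrane traffic and protein turnover, 24 had a peak, 15 of these were below 0, and the median was -0.10. The deubiquitinase USP20 was lowest (25 and 45 reads, -0.79) and RABEPK highest (60 and 48 reads, 0.38). Of 30 growth factor signalling genes, 14 had a peak, 7 of these were below 0, and the median was 0.00, with NEK6 lowest and RGS3 highest.

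Other stretches of the genome had values of the same size. On chromosome 17 from 25 Mb, 935 peaks had a median of -0.18, and on chromosome 2 up to 90 Mb, 651 peaks had a median of -0.19. The low median of the segment was therefore not particular to chromosome 9.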

How the data were processed

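H4K20me1 CUT&Tag was measured in 4 Kasumi-1 libraries, 2 per group. The submitters' processing notes name hg38, Bowtie2, cutadapt and DESeq. The peak caller, and how libraries were merged, is not given in the sources used here. The authors deposited, for each peak, log2 values of scaled reads in either group, their log2 fold change, and p-values with and without adjustment. Subtracting the second-listed from the first-listed value gave the fold change of every peak within 0.01. All low log2 values (1.5 to 5.5, 5676 and 5851 of them) equal log2 of whole numbers plus a constant of 0 or -0.057, within 0.0061. Reads were therefore recovered by rounding. Whole numbers would also appear if 1 had been added to each count or set as a floor, so a recovered 1 may mean no reads. The deposited values have 2 decimals, so large counts, outside the checked range, are approximate. The fold column includes these constants, and so do the ratios of summed reads.

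Peaks were selected by start position. Members, gene lists and limits were chosen with earlier results of these data known. With 1 column per group no test was made, and p-values are the authors' deposited ones, whose estimate of the spread between libraries is not known. Scripts were tested on simulated data. Genes named are the 10 lowest and 10 highest peaks of at least median mean signal (6.15), genes with 4 or more peaks, the extremes of each list and the peaks beside the limit; others were chosen after their values were seen. Some genes that this rule names are not reported here. Gene symbols came from RefSeq (10031 of 10065 nearest genes matched). Alternatives covered scaling, signal filters, segment start, window size and gene assignment. Python 3.11.15, numpy 2.4.6, pandas 2.3.3, scipy 1.17.1 and matplotlib 3.10.9 were used.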

Additional observations from a re-analysis of the deposited data

How the results depend on the processing

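The median of the segment lay between -0.264 and -0.144 and its difference from chromosome 9 below 40 Mb between -0.39 and -0.325 under the alternatives run, and none turned a sign. Scaled to the same reads in peaks, the median was -0.264 and the share of peaks below 0 was 77.6%. This scaling lowers every value by 0.11, so the median of all peaks, 0.06 as deposited, falls below 0 too. No share of all peaks below 0 is given on that scale. After subtraction of the median of the same signal decile the median was -0.26. The number of peaks lower at an unadjusted p under 0.05, 32, became 13 among peaks of at least median signal, 7 at an unadjusted p under 0.01 and 0 at the adjusted p of the authors' deposited table. Rescaling does not recompute these p-values and gave no such count. The windows below 0 numbered 19 of 22 at 2 Mb and 7 of 9 at 10 Mb. At 5 Mb they numbered 16 of 16 when scaled to the same reads in peaks and 14 of 16 without any, so windows given as not low on the deposited scale turn below 0 under these scalings. The genome share of 26.6% holds for 5 Mb windows on the deposited scale, and none is given for the other sizes and scalings. Of all alternative values, 37 were classed as unmoved and 8 as moved. The 37 include the 5 Mb window counts of 16 and 14 of 16, although these differ from the 12 on the deposited scale. Also among them are the values without 40 to 68 Mb, an alternative chosen after seeing the data (median -0.17). No paired analysis was possible because each group has 1 column, which carries no replicate number, and for the same reason no library could be left out. Peaks of few reads, above all between 40 and 68 Mb, limit what single values show.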
